A study of Homo sapiens with 4 samples.

Results

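The NFIC library is the ChIP-seq library prepared from HepG2 chromatin with the antibody against NFIC, and its members are all peaks of the deposited NFIC list, 13643 of the 46380 peaks in the 3 lists of the study. HepG2 is a long-established human cell line that came from a tumour of the liver. The cells carried no treatment beyond the crosslinking with 1% formaldehyde for 10 min that every library shared, and the groups differ only in the antibody: NFIC, SMRC1 (29441 peaks) or SATB1 (3296 peaks). The study compared profiles from its own antibodies, named Pbodies in its design text, with published ones, which were not used here. Each antibody had 1 library of 1 line, so no value below has a replicate and no difference between lists could be tested. The 95% intervals cover counting error over peaks only: Clopper-Pearson for shares, order statistics for medians. The peak lists hold no expression values, so the cell line was not checked against liver markers. The input library was not analysed here. Total read numbers are not in the lists, and the depth behind each peak is unknown.

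NFIC is a member of the nuclear factor I family of transcription factors, which bind DNA as dimers at a palindromic sequence and are known in liver cells for sites in the promoters and enhancers of hepatocyte genes. A ChIP-seq peak is a stretch of the genome where reads from the immunoprecipitated DNA exceed the local background, and its summit is the base where they pile up most. For a factor that binds a short sequence, a peak about as wide as the DNA fragments with a central summit is the textbook shape of 1 bound site, whereas neighbouring sites closer together than the fragments run into 1 wider peak.

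NFIC peaks were mostly short. The median width (end minus start) was 490 bp (486 to 495), with quartiles of 382 and 629 bp, and lay between the SATB1 list at 399 bp (394 to 404) and the SMRC1 list at 607 bp (603 to 612). Peaks of 300 to under 500 bp made up 51.8% of the NFIC list (7073 peaks), those of 500 to under 1000 bp 45.4% (6194 peaks), and those of 1000 bp or more 2.76% (376 peaks; 2.49 to 3.04). In the SMRC1 list 15.4% of peaks reached 1000 bp and in the SATB1 list 1.94%. The widest NFIC peak had 2020 bp, whereas the widest peaks of the SMRC1 and SATB1 lists had 5308 and 4453 bp.

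The lower end of the widths was a hard limit. No NFIC peak was shorter than 308 bp, and 577 peaks (4.23%; 3.90 to 4.58) had exactly that width, against at most 54 peaks at any other single width. The SMRC1 and SATB1 lists had the same pile-up at 312 and 309 bp, with 581 and 231 peaks. The NFIC peaks at the limit were weak, with a median −log10 q of 4.21 and a median fold of 4.09, against 9.27 and 4.87 for the whole list. Fold is the authors' ratio of the summit over the local background, and −log10 q is the authors' adjusted significance of the peak, a larger value marking a stronger peak. Of the 577, 33.3% lay at an SMRC1 peak (at least 1 bp shared), compared with 51.9% of all NFIC peaks.

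**Figure D1:**
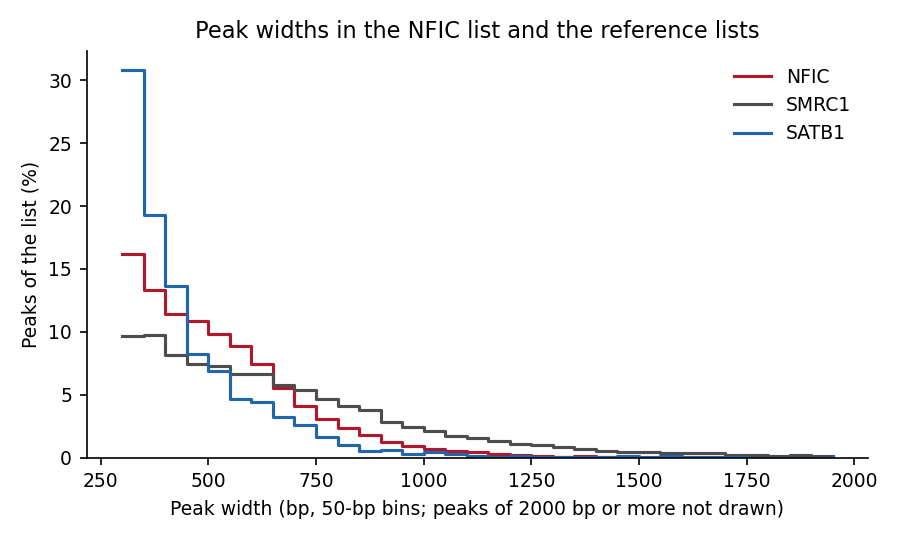
Share of the peaks of each list (vertical axis, %) in bins of 50 bp of peak width (horizontal axis), as 1 line per list, each from 1 library. The SATB1 line is highest at the left, the NFIC line is above both others from 450 to 650 bp, with 9.84% of NFIC peaks from 500 to 550 bp, and the SMRC1 line has the highest tail; 1 NFIC peak of 2020 bp is not drawn.

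Stronger NFIC peaks were wider. Peaks with a −log10 q under 5 had a median width of 360 bp, and the medians were 423 bp from 5 to 10, 539.5 bp from 10 to 20, 666 bp from 20 to 50, and 834 bp at 50 or more. Peaks of 1000 bp or more accounted for 0.152% of the weakest class and 19.6% of the strongest. Across all 13643 peaks Spearman's rho of width with −log10 q was 0.70 and that of width with fold 0.46, as a description, since these measures come from the same reads. At equal −log10 q, NFIC peaks were narrower than SMRC1 peaks in each of the 5 classes. From the weakest to the strongest class the SMRC1 medians were 401, 525, 718, 941 and 1202 bp. The distance between the NFIC and SMRC1 medians was thus smallest in the weakest class and largest in the strongest, where it came to 834 against 1202 bp. The SATB1 medians were 370, 404, 484.5, 614.5 and 743 bp, the last from 16 peaks. A −log10 q depends on a library's depth, which the lists do not give, so equal classes need not hold equal enrichment.

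**Figure D2:**
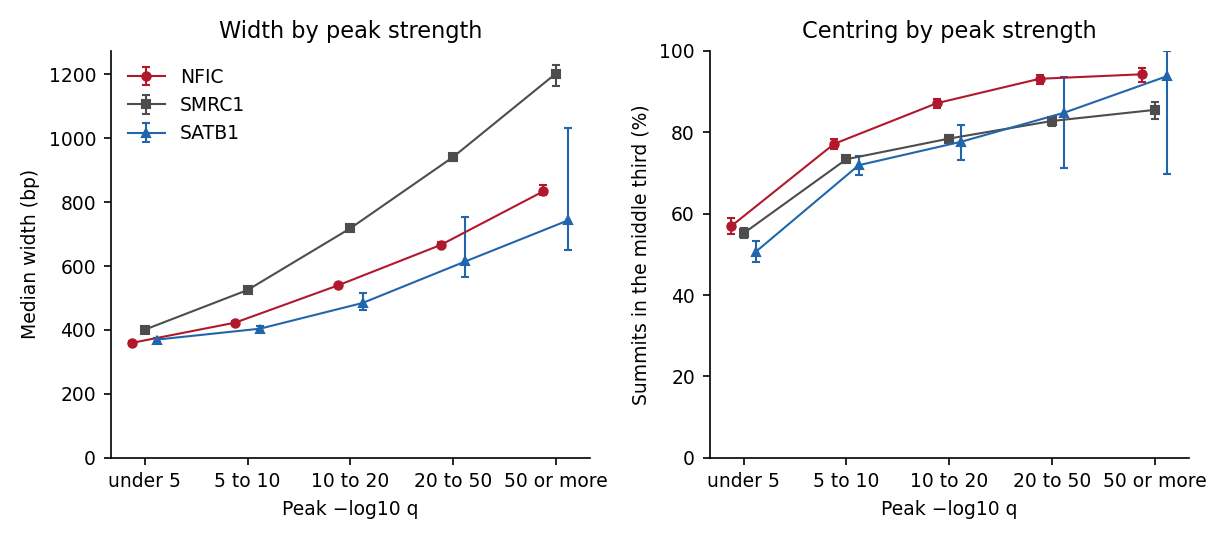
Left, median peak width (bp) and right, share of central summits (from 1/3 to below 2/3 of the width, %), by class of −log10 q for the NFIC, SMRC1 and SATB1 lists; bars are 95% intervals over peaks of 1 library. NFIC points rise from 360 to 834 bp on the left, below SMRC1 throughout, and from 56.9% to 94.2% on the right.

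NFIC summits lay near the middle of their peaks. The median position, as the offset from the start divided by the width, was 0.494 (0.492 to 0.496), with quartiles of 0.410 and 0.573. A summit was counted as central from 1/3 to below 2/3 of the width. Central summits were found in 79.2% of NFIC peaks (10803 peaks; 78.5 to 79.9), compared with 72.2% of SMRC1 peaks (71.7 to 72.7) and 63.5% of SATB1 peaks (61.8 to 65.1). The part before the central range held 11.5% of NFIC summits (10.9 to 12.03) and the part after it 9.34% (8.85 to 9.84), so the side of lower coordinates had slightly more. The SMRC1 list leaned the same way, with 14.6% (14.2 to 15.0) against 13.2% (12.8 to 13.6), whereas the SATB1 intervals overlapped, with 19.1% (17.8 to 20.5) against 17.4% (16.1 to 18.8). Only 188 NFIC summits (1.38%) lay within 50 bp of an edge.

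Centring rose with strength. Of the NFIC peaks with a −log10 q under 5, 56.9% had a central summit (55.0 to 58.8). The share was 77.1% from 5 to 10, 87.1% from 10 to 20, 93.1% from 20 to 50 and 94.2% (92.3 to 95.8) at 50 or more. The NFIC share was above the SMRC1 share in each class, by 56.9% against 55.2% in the weakest and 94.2% against 85.5% in the strongest, and the intervals did not overlap from a −log10 q of 5 upwards. Widths were not matched in these shares. Among peaks of 400 to under 1000 bp the NFIC share was above the SMRC1 share in each class. It was 66.2% against 60.8% in the weakest and 97.3% against 93.2% in the strongest, the only class where these intervals overlapped. Among peaks of 300 to under 400 bp it was also higher in each class present, with overlapping intervals. Among peaks of 1000 bp or more, 376 in the NFIC list, the NFIC share was below the SMRC1 share in each class. From 10 to 20 it was 33.3% (21.7 to 46.7) against 58.0% (55.1 to 60.8). In the other classes the intervals overlapped, with 81.7% against 82.7% at 50 or more.

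With width, centring first rose and then fell. Peaks of 300 to under 400 bp had central summits in 64.1%, those of 400 to under 500 bp in 86.9% and those of 500 to under 600 bp in 88.7%, the highest share. From there it went to 85.6% at 600 to under 800 bp, 80.0% at 800 to under 1000 bp, 70.8% at 1000 to under 1200 bp and 54.0% (43.0 to 64.8) at 1200 to under 1500 bp. The 22 peaks of 1500 bp or more combined the lowest share of these classes, 40.9% (20.7 to 63.6), with the highest median −log10 q, 48.6. Within the strongest class, at a −log10 q of 50 or more, 609 of 626 peaks of 400 to under 1000 bp (97.3%) had a central summit, against 125 of 153 peaks of 1000 bp or more (81.7%; 74.7 to 87.5). Between 10 and 20 the same shares were 88.8% and 33.3% (20 of 60 peaks; 21.7 to 46.7). Summits of wide NFIC peaks still stood well inside them: in peaks of 1000 to under 2000 bp the median distance to the nearer edge was 436 bp, compared with 152 bp in peaks of 300 to under 500 bp.

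**Figure D3:**
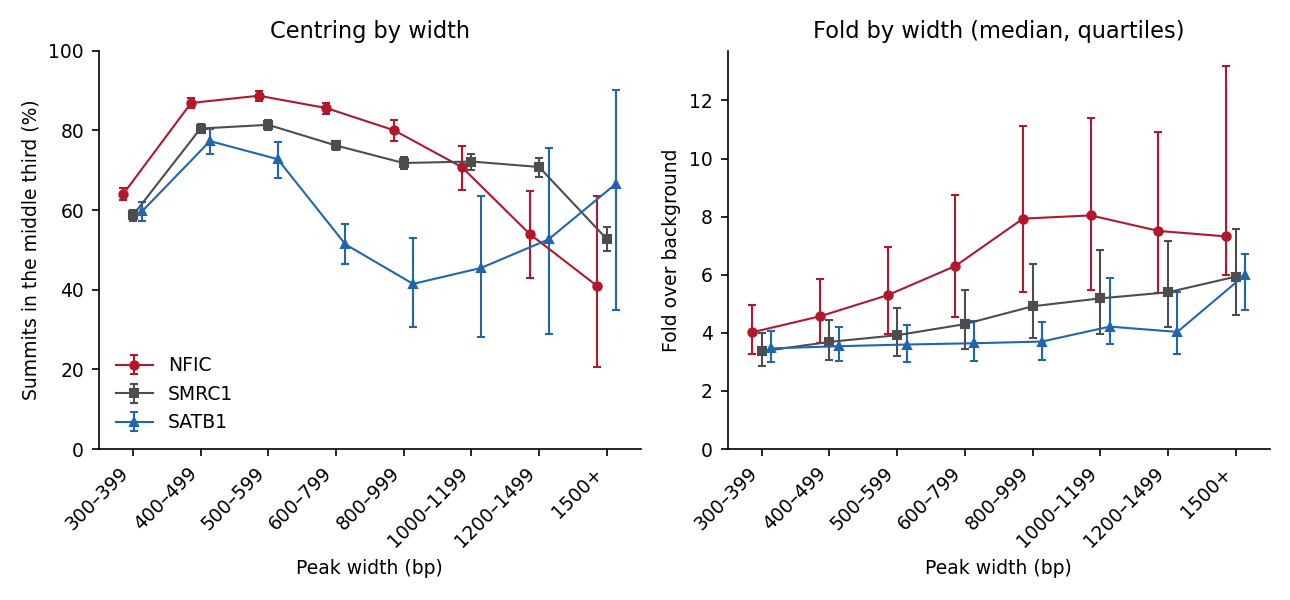
Left, share of central summits (%, bars are 95% intervals) and right, authors' fold over background (median, bars are quartiles), by class of peak width in bp for the 3 lists. NFIC centring peaks at 88.7% for 500 to under 600 bp and is 40.9% at 1500 bp or more, whereas the NFIC fold rises from 4.02 to 8.04 at 1000 to under 1200 bp.

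The widest NFIC peaks were a mixed group in strength. The widest of all lay on chromosome 5 at 172197724 to 172199743 (hg19, band q35.1), with 2020 bp, a fold of 6.59 and a −log10 q of 30.8, which ranked 1644 in the list. Its summit stood at 0.342 of its length, 690 bp from the nearer edge. An SMRC1 peak of 2303 bp, with its summit 992 bp away, and a SATB1 peak of 693 bp overlapped it. The second, on chromosome 1 at 11864712 to 11866680 (p36.22), had 1969 bp, a fold of 19.0 and a −log10 q of 234, rank 14. Its summit stood at 0.777, and the SMRC1 peak there was shorter, at 1302 bp. The third, on chromosome 1 at 234859171 to 234861103 (q42.3), had 1933 bp, a fold of 10.4 and a central summit at 0.519, which lay 15 bp from the summit of an SMRC1 peak of 3168 bp.

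Other wide peaks overlapped an SMRC1 peak that was wider still. On chromosome 20 at 30194780 to 30196702 (q11.21) an NFIC peak of 1923 bp with a fold of 4.85 overlapped the widest SMRC1 peak of all, 5308 bp, with a SATB1 peak of 1471 bp. On chromosome 6 at 36645812 to 36647514 (p21.2) an NFIC peak of 1703 bp (fold 8.61) overlapped an SMRC1 peak of 3128 bp. The NFIC peak on chromosome 14 at 35872629 to 35874281 (q13.2) had 1653 bp and a fold of 5.93, beside 2087 bp for SMRC1 and 1033 bp for SATB1. Only 2 of the 20 widest had no SMRC1 peak. One was on chromosome 19 at 5231690 to 5233314 (p13.3), with 1625 bp and a fold of 13.6. The other, on chromosome 16 at 1321178 to 1322746 (p13.3), had 1569 bp and a fold of 50.2, the highest fold of the whole NFIC list.

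Over the 20 widest, widths ran from 1540 to 2020 bp and folds from 2.80 to 50.2, and ranks by −log10 q from 7 to 12448. The weakest, on chromosome 3 at 42695696 to 42697256 (p22.1), had 1561 bp with a −log10 q of 3.77. Summits were central in 8, before the central range in 5 and after it in 7. An SMRC1 peak overlapped 18 of the 20 and was wider than the NFIC peak in 8 of these 18. Among the 316 NFIC peaks of 1000 bp or more at SMRC1 sites the SMRC1 peak was wider in 150, and among all 7074 in 5694. Picking peaks for a large NFIC width lowers this share by construction. With both lists cut to their 3296 strongest peaks and the 20 widest NFIC peaks picked anew, 9 overlapped an SMRC1 peak. With both cut at a −log10 q of at least 10 and the 20 picked anew, 14 did. When at least 50% of the NFIC peak had to be shared, 15 of the first 20 did. Among the 376 peaks of 1000 bp or more, 84.0% (79.9 to 87.6) were at an SMRC1 peak, compared with 55.7% of those of 500 to under 1000 bp and 46.8% of the narrower ones. For SATB1 the shares were 21.0%, 7.51% and 4.89%.

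The strongest NFIC peaks had another shape. The 10 with the highest −log10 q ranged from 865 to 1608 bp in width, and all 10 summits were central, between 0.365 and 0.621. The leading peak, on chromosome 13 at 113950944 to 113951992 (q34), had 1049 bp and a summit at 0.418, and the next, on chromosome 7 at 4814783 to 4815740 (p22.1), 958 bp and a summit at 0.475. At all 10 an SMRC1 peak was present and was narrower than the NFIC peak, with 573 to 1372 bp. Only 1 peak was both among the 10 strongest and the 20 widest, on chromosome 20 at 44518985 to 44520592 (q13.12), with 1608 bp, a fold of 16.9 and a summit at 0.595.

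NFIC peaks were spaced widely along the genome. The median gap from the end of a peak to the start of the next was 64.0 kb (62.0 to 66.1), with quartiles of 20.3 and 180 kb, compared with 22.7 kb in the SMRC1 list and 253 kb in the SATB1 list. Of the 13619 gaps, 2.86% were up to 1 kb, 6.48% from 1 to 5 kb, 34.8% from 5 to 50 kb, 46.9% from 50 to 500 kb and 8.96% longer. The shortest gap had 51 bp. A neighbour within 5 kb was present for 17.3% of NFIC peaks (2363 peaks), 37.9% of SMRC1 peaks and 13.7% of SATB1 peaks. Spacing follows the number of peaks. The NFIC and SMRC1 lists were therefore cut to their 3296 strongest peaks, the size of the uncut SATB1 list. The median gaps were then 280 kb for NFIC, 262 kb for SMRC1 and 253 kb for SATB1. At that number NFIC peaks had the fewest close neighbours, with 5.52% (4.77 to 6.36) within 5 kb. The shares were 8.65% (7.71 to 9.66) for SMRC1 and 13.7% (12.53 to 14.90) for SATB1, whose weak peaks stayed in. Keeping only peaks whose −log10 q reached 10 gave another order, with 3.95% (2.36 to 6.17) for SATB1, 9.34% for NFIC and 21.2% for SMRC1. Those sets were unequal in size, with 456, 6314 and 12871 peaks, respectively. Which list had the fewest close neighbours thus depended on the cut.

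**Figure D4:**
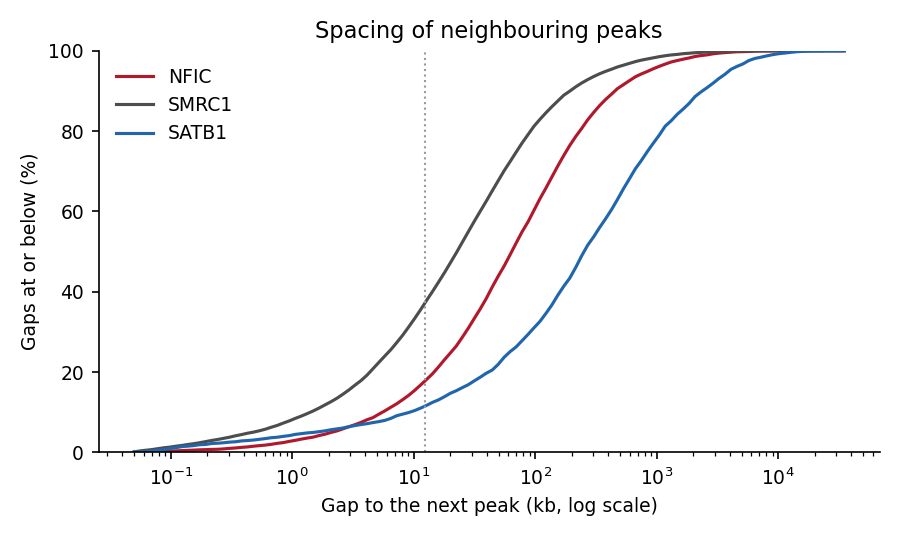
Share of gaps (vertical axis, %) at or below each length (horizontal axis, kb, log scale) for the NFIC, SMRC1 and SATB1 lists; the dotted line marks the distance used to link peaks into loci. The NFIC curve has its median at 64.0 kb, right of SMRC1, and below about 3 kb it runs under the SATB1 curve, with 2.86% against 4.37% of gaps up to 1 kb.

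Close pairs of NFIC peaks, with a gap of up to 1 kb, numbered 390 and held 758 peaks (5.56%; 5.18 to 5.95), against 15.3% of SMRC1 peaks and 8.31% of SATB1 peaks. The median gap in a pair was 444 bp and the median distance between the summits 1020 bp, with quartiles of 764 and 1311 bp. The higher fold of a pair was at the median 1.43 times the lower, and at least 2 times in 71 pairs (18.2%; 14.5 to 22.4). Such a ratio cannot fall below 1, and no value for peaks that are not neighbours was computed. It therefore does not show that pairing goes with unequal strength, and the spread of folds in each list was not taken into account. The wider partner had the higher −log10 q in 297 of 388 pairs (76.5%). Pairs that differed by 2 times or more made up 14.3% in the SMRC1 list (343 of 2394; 12.9 to 15.8), an interval that overlaps that of NFIC, and 2.098% in the SATB1 list (3 of 143; 0.435 to 6.01). NFIC summits did not lean to the gap, with 374 of 780 (47.9%; 44.4 to 51.5) nearer to it than to the outer edge, whereas 54.0% (52.6 to 55.4) of the SMRC1 summits in pairs were.

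Strength was at most weakly related between NFIC neighbours. Spearman's rho of fold was 0.18 over the 390 gaps up to 1 kb, 0.08 over the gaps from 1 kb up to the distance used to link loci and 0.01 over gaps longer than 500 kb. For width it was -0.02 up to 1 kb. These correlations are across peaks of 1 library and are a description.

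Linked over gaps of up to about 12 kb (the exact distance is given with the processing), the NFIC peaks formed 11215 loci, of which 9400 had 1 peak, 1383 had 2, 299 had 3, 97 had 4 and 36 had 5 or more. The 1815 loci with several peaks held 4243 peaks, 31.1% of the list (30.3 to 31.9), compared with 57.8% in the SMRC1 list and 20.1% in the SATB1 list. At equal numbers of peaks, with the SATB1 list uncut, the shares were 11.0% (9.91 to 12.1) for NFIC, 16.3% (15.0 to 17.6) for SMRC1 and 20.1% (18.8 to 21.6) for SATB1. At a −log10 q of at least 10 they were 18.4%, 37.7% and 5.48%, respectively. Loci of 5 or more held 1.41% of NFIC peaks and 12.3% of SMRC1 peaks. NFIC loci of several peaks had a median span of 7.30 kb, and those of 5 or more 24.1 kb (quartiles 17.8 and 29.6), of which peaks covered a median of 12.8%.

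Peaks in crowded NFIC loci were wider but had lower folds. The median width was 482 bp (477 to 487) in loci of 1 peak, 509 bp (502 to 516) in loci of several peaks and 538.5 bp (506 to 581) in loci of 5 or more. The median fold was 5.01 (4.97 to 5.08), 4.49 (4.42 to 4.57) and 3.82 (3.56 to 4.12), respectively, and the median −log10 q 9.02, 9.68 and 9.92. Centring differed little, at 79.3% for loci of 1 peak and 77.6% (71.0 to 83.3) for loci of 5 or more. At the other extreme, the 288 NFIC peaks with no neighbour within 500 kb had a median width of 424.5 bp and a median fold of 5.60.

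The share at SMRC1 peaks moved along with crowding, from 47.5% (46.5 to 48.5) in loci of 1 NFIC peak to 61.4% (59.96 to 62.91) in loci of several and 73.4% (66.6 to 79.5) in loci of 5 or more. The lower fold of crowded loci was present among NFIC peaks at SMRC1 sites, with medians of 4.27 for loci of 1 peak, 4.02 for several and 3.55 for 5 or more. Away from SMRC1 sites the medians were 5.67, 5.30 and 4.78 (4.30 to 5.74), the last over 51 peaks. Without chromosomes 2, 6, 14, 16, 17 and 20 the folds were 5.11, 4.72 and 3.77, and at a −log10 q of 10 or more they were 6.88, 6.10 and 5.53.

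Within NFIC loci the highest fold was at the median 1.57 times the lowest in loci of several peaks and 2.84 times in loci of 5 or more. These ratios were 1.57 and 2.35 in the SMRC1 list and 1.28 and 1.61 in the SATB1 list. Such a ratio tends to grow with the number of peaks by construction, and it was 1.44 in NFIC loci of 2. No value for unlinked peaks was computed, so the rise does not show that crowding goes with unevenness. The strongest peak, by −log10 q, was also the widest in 1323 of 1815 loci (72.9%; 70.8 to 74.9), and in 22 of the 36 loci of 5 or more. In the SMRC1 list the share was 69.4% (68.2 to 70.6) and in the SATB1 list 60.7% (54.8 to 66.4) of loci of several peaks. The strongest peak was the first or last in 11 of the 36 NFIC loci of 5 or more. The counts were 178 of 581 in the SMRC1 list and 3 of 13 in the SATB1 list. The share to be met by position alone was not computed.

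The locus with the most NFIC peaks lay on chromosome 19 at 1232468 to 1276284 (p13.3) and held 9 peaks over 43.8 kb. Its last peak, at 1275406 to 1276284, had a fold of 12.7 and a −log10 q of 152, whereas the other 8 had folds from 2.22 to 7.15. The peak at 1248705 to 1249762 was the widest of the locus with 1058 bp, had a fold of only 2.65 and its summit at 0.126, and overlapped an SMRC1 peak of 1759 bp with a fold of 7.98. The same span held 9 SMRC1 peaks and 6 SATB1 peaks.

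The next locus, on chromosome 1 at 235092904 to 235133623 (q42.3), held 8 NFIC peaks over 40.7 kb. There too the strongest peak was the last, at 235132667 to 235133623 with a fold of 11.6, and the other folds ran from 2.45 to 7.59. Of the 8 peaks 7 were at SMRC1 peaks and 0 at SATB1 peaks. The third locus, also in 1q42.3 at 234735793 to 234749764, packed 6 peaks into 13.97 kb, with peaks over 27.8% of its length. Each of these 6 was at an SMRC1 peak, and 5 were at a SATB1 peak.

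Loci of 6 peaks on chromosomes 12 at 101993581 to 102014545 (q23.2), 10 at 74067980 to 74097288 (q22.1), 17 at 79906361 to 79935779 (q25.3) and 20 at 52720568 to 52766032 (q13.2) were more even. On chromosome 10 the folds ran from 3.19 to 8.44 with a median of 7.10, the highest median of the 7 loci of 6 or more peaks. On chromosome 20 they ran from 2.84 to 4.26, with gaps of 7209 bp to 11.2 kb. The densest locus among the 10 named was on chromosome 16 at 1875465 to 1883122 (p13.3), where 5 peaks covered 37.7% of 7.66 kb with folds from 3.20 to 13.4. Only 2 of its 5 peaks were at SMRC1 peaks.

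**Figure D5:**
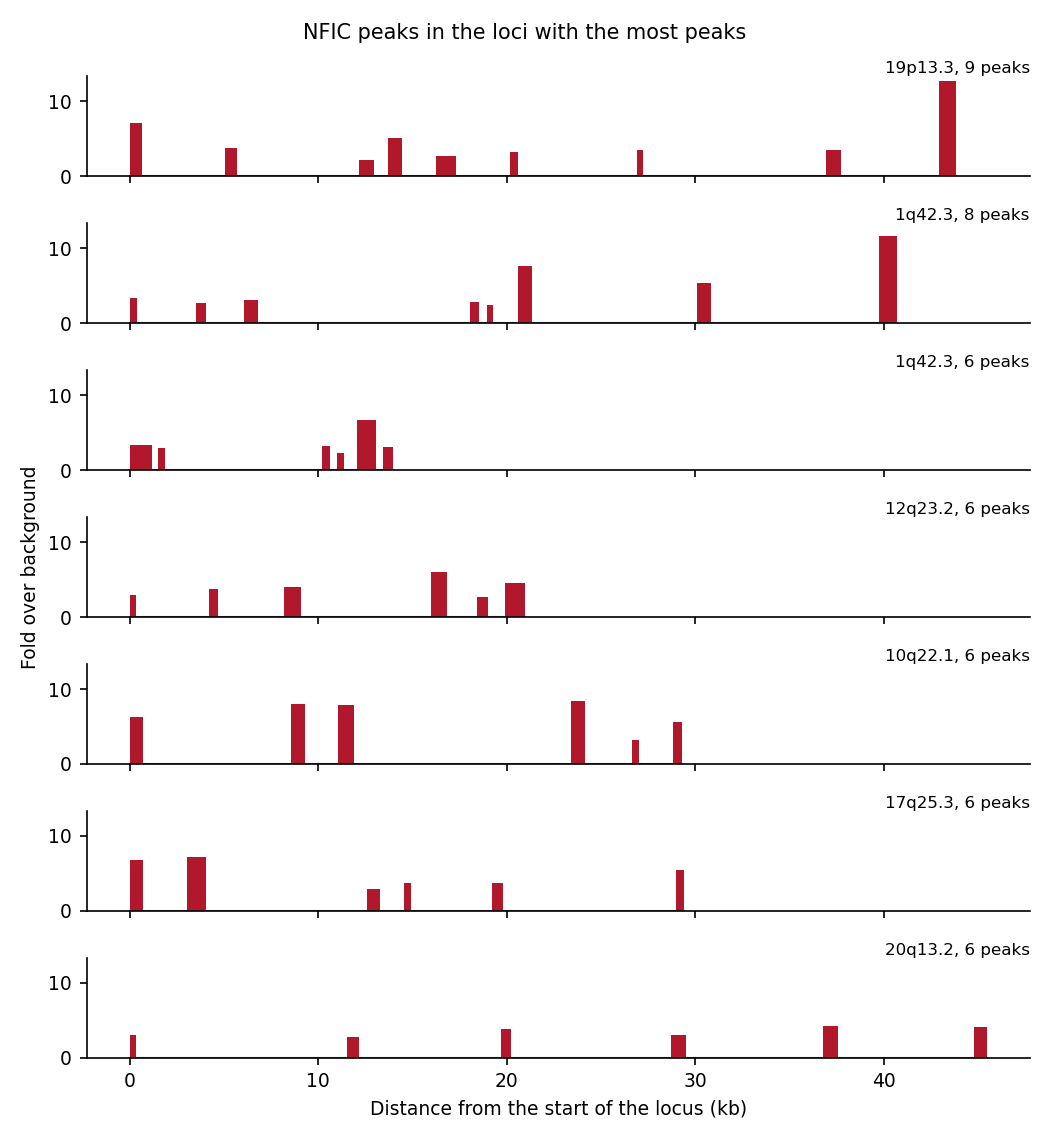
The 7 NFIC loci of 6 or more peaks, named by chromosome and band, with the authors' fold of each peak (vertical axis) against distance from the start of the locus (horizontal axis, kb); each bar is as wide as its peak. In the loci of 9 and 8 peaks the last peak stands above the rest, with folds of 12.7 and 11.6, whereas the folds on chromosome 20 lie between 2.84 and 4.26.

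NFIC peaks differed between chromosomes in spacing and in the share of wide peaks, and less in median width and centring. Among the 22 autosomes the density ran from 2.01 peaks per Mb on chromosome 13 to 9.87 on chromosome 17, and the median gap from 112 kb on chromosome 4 to 38.1 kb on chromosome 17. The same 2 chromosomes had the lowest and highest density in the reference lists, with 5.45 and 20.3 per Mb for SMRC1 and 0.391 and 3.24 for SATB1. The share of peaks in loci of several peaks ran from 19.1% on chromosome 4 to 42.1% on chromosome 17. Chromosome 17 also had the highest such share for SMRC1 (68.3%) and SATB1 (33.5%), so this spread is not particular to NFIC. The share of peaks of 1000 bp or more ran from 0.714% on chromosome 10 to 4.12% on chromosome 17. The median width stayed between 455 bp on chromosome 21 and 511 bp on chromosome 17, and the share of central summits between 74.8% and 81.4%. Chromosomes 2, 6, 14, 16, 17 and 20, which 1 of the alternative settings leaves out, together held 35.3% of NFIC peaks. They held 46.5% of those of 1000 bp or more and 20 of the 36 loci of 5 or more.

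The longest stretches without an NFIC peak were mostly centromeric. The gap on chromosome 9 from 38381476 to 71097566 (p13.2 to q21.11) had 32.7 Mb, that on chromosome 1 from 121332738 to 144939061 23.6 Mb and that on chromosome 16 from 33964214 to 46722776 12.8 Mb, and all 3 span the centromere and a variable band. On chromosome X, a gap of 9.99 Mb from 57670513 to 67660769 spans the centromere, whereas one of 11.1 Mb from 135897201 to 146957321 (q26.3 to q27.3) lies within the long arm. In that stretch of the long arm the SMRC1 list had 3 peaks and the SATB1 list 1. The other stretches also held SMRC1 peaks: 6 on chromosome 9, 4 on chromosome 1, 1 on chromosome 16 and 7 at the centromere of chromosome X. SATB1 had 1 peak each in the stretches of chromosomes 1 and 16.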

How the data were processed

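Coordinates are in hg19. The submitters' processing notes name Bowtie 1.1.2, SAMtools, MACS2 2.1.1 and deepTools, and hg19 as build. How each tool was set, and the control used for the peaks, is not given in the sources used here. The authors deposited 1 peak list per antibody, with 10 columns in narrowPeak order. In every NFIC peak the deposited score equalled the rounded-down value of 10 times the −log10 q. The deposited ratio (fold) and −log10 q were taken as the authors give them, to describe, rank and class peaks; the deposited −log10 p was not needed. No NFIC peak had a −log10 q below 1.02.

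Widths, gaps (end of a peak to start of the next on the same chromosome), nearest neighbours, relative summit positions and loci (gaps of up to 12.5 kb) were computed from the coordinates, which are printed 1-based. No interval occurred more than once in a list, and no summit lay outside its peak. Regions were named by rule: the 20 widest peaks, the 10 peaks of highest −log10 q, the 10 loci of most peaks (ties by the shorter span) and the 5 longest gaps, each given from the top where fewer sufficed. Members, classes and rules were chosen with earlier results of these data known. The intervals have a level of 95%. Bands and chromosome lengths came from circlize 0.4.16. The calculations were tested on simulated data. The software was scipy 1.17.1, pandas 2.3.3, numpy 2.4.6 and matplotlib 3.10.9 under Python 3.11.15. Alternatives were a stricter −log10 q, equal numbers of peaks, chromosomes left out, other linking distances, distances between summits and a stricter overlap. No hg19 annotation or genome was used here, so gene starts and motifs, which were planned, were not analysed and no sequence is printed.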

Additional observations from a re-analysis of the deposited data

Results flagged for a closer look

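Between 2 broad width classes, centring differed in opposite directions in the NFIC and SATB1 lists. From peaks of 300 to under 500 bp to peaks of 500 to under 1000 bp, the share of central summits was 12.2 percentage points higher in the NFIC list (73.9% to 86.1%) and fell by 5.12 points in the SATB1 list (65.1% to 59.98%), so the 2 contrasts differed by 17.3 points. In the SMRC1 list it was 8.16 points higher. In finer classes centring first rose and then fell in both lists: from 300 to under 400 bp to 400 to under 500 bp it went from 64.1% to 86.9% for NFIC and from 59.7% to 77.3% for SATB1, and from 500 to under 600 bp to 800 to under 1000 bp from 88.7% to 80.0% and from 72.8% to 41.5%. The median −log10 q of peaks in loci of several peaks was 0.663 above that of peaks alone in their locus in the NFIC list and fell by 0.031 in the SATB1 list, a difference of 0.694, and was 0.730 higher in the SMRC1 list. Each list is 1 library, and neither difference was tested.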

How the results depend on the processing

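Limits first: the lists give no read depth, fewer peaks mean wider spacing by construction, and 1 library per antibody leaves no replicate spread. No paired analysis was possible because each antibody had 1 library. Of 31 alternatives to the NFIC results, 5 stayed within the counting interval (or within 1.5 times for a count) and 26 did not. With peaks of −log10 q of at least 10, the NFIC median width was 613 bp, the share of at least 1000 bp 5.59%, the median gap 141 kb, the share with a neighbour within 5 kb 9.34%, the share in loci of several peaks 18.4%, the loci of at least 5 peaks 1 and the share of central summits 89.99%. With equal numbers of peaks per list these were 693.5 bp, 9.31%, 280 kb, 5.52%, 11.0%, 0 loci and 92.9%. In that setting 9 of the 20 widest NFIC peaks, picked anew, overlapped a peak of the cut SMRC1 list. Without chromosomes 2, 6, 14, 16, 17 and 20 the first 6 of these measures were 483 bp, 2.28%, 72.8 kb, 15.5%, 28.3% and 16 loci. With linking distances of 5 and 25 kb, 17.3% and 46.7% of peaks were in loci of several peaks, and 4 and 141 loci had at least 5. Measured between summits, 15.8% had a neighbour within 5 kb. Fewer peaks enter the first 3 settings; beyond that the cause was not tested. The SMRC1 median width stayed above the NFIC median in the 3 settings that change the peaks (827, 1071 and 600 bp). Over all widths together, the NFIC share of central summits stayed above that of SMRC1 there (80.6%, 83.6% and 71.9% for SMRC1).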

Other observations

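The third widest NFIC peak and 2 of the 3 loci with the most peaks lie in 1 stretch of 398 kb on chromosome 1, at 234735793 to 235133623 (q42.3), chosen after its values were seen. It held 19 NFIC peaks, 4.78 per 100 kb against 0.441 over the genome, 18 of them in loci of several peaks and 3 of 1000 bp or more. Folds ran from 2.28 to 11.6 with a median of 3.20, below the 4.87 of the whole list. The SMRC1 list had 35 peaks in the stretch and the SATB1 list 6. Over chromosome 1 these lists had 11.0 and 1.12 peaks per Mb, so the stretch was dense in them too and is not particular to NFIC. Of the 19 NFIC peaks 17 were at an SMRC1 peak, compared with 51.9% of all NFIC peaks.

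Wide NFIC peaks of low fold and narrow ones of high fold were both rare, and were looked at after the values were seen. Of the 376 peaks of 1000 bp or more, 38 (10.1%; 7.25 to 13.6) had a fold under 4, compared with 32.2% of all NFIC peaks. An SMRC1 peak was present at 36 of the 38, or 94.7% (82.3 to 99.4). The share over all 376 was 84.0% (79.9 to 87.6), and the 2 intervals overlap. The SMRC1 peak was wider than the NFIC peak at 28 of the 36, against 150 of the 316 over all wide peaks at SMRC1 sites. The lowest fold, 2.57, was that of a peak of 1027 bp on chromosome 17 at 57443958 to 57444984 (q22), whose summit lay 8 bp from that of an SMRC1 peak of 2365 bp and fold 6.18. In the other direction, 2 NFIC peaks under 400 bp had a fold of at least 10. They lay on chromosome 10 at 51827434 to 51827813 (q11.23, 380 bp, fold 14.6) and on chromosome 7 at 99844856 to 99845252 (q22.1, 397 bp, fold 10.6). The nearest NFIC peak was 252 and 98.2 kb away, and neither had an SMRC1 or SATB1 peak. Among all NFIC peaks under 500 bp, 46.8% were at an SMRC1 peak and 4.89% at a SATB1 peak.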
